A study of Danio rerio with 2 samples.

Results

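The genes described here are 6 members of the Nodal pathway that act in left-right patterning of the zebrafish embryo: *dand5*, *spaw*, *lft1*, *lft2*, *tdgf1* and *gdf3*. They were taken by symbol from the table of 27771 genes counted in single cells of the tailbud, where each of the 6 symbols had 1 row. The libraries compared were 1 from *stag2b*-/- embryos, homozygous for the nz207 allele of a subunit of the cohesin complex, and 1 from wild-type embryos, both at 16 hours post fertilization (hpf). The labels name the wild type as AB, whereas the methods of the study name WIK, and the kit is v2 in the labels and v3 in the methods. Tailbuds, the posterior end of the embryo with the progenitors that extend the body axis, were dissected, pooled by genotype, dissociated with collagenase P and trypsin and captured in droplets (10x Genomics), so that each transcript molecule carried a cell barcode and a unique molecular identifier (UMI). With 1 library of pooled tailbuds per genotype, no test between genotypes was possible. All intervals are 95% intervals for the counting of UMIs or cells, and variation between embryos or libraries is not in them.

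Nodal ligands are TGFβ-family proteins that bind activin receptors together with an EGF-CFC co-receptor and activate Smad2 and Smad3. In zebrafish the Nodal ligand Southpaw, the product of *spaw*, is made beside Kupffer's vesicle, a small ciliated organ at the tail end of the notochord, and then spreads forward in the left lateral plate mesoderm, where it switches on its own gene and *lft2*. Dand5 (also called Charon) is a secreted antagonist made around the vesicle and restrains Southpaw there. Gdf3 (Vg1) is the partner with which Nodal ligands form dimers, and Tdgf1 (One-eyed pinhead) is the co-receptor. Lefty1 and Lefty2, the products of *lft1* and *lft2*, are antagonists induced by Nodal itself, and *lft1* in the notochord is known as a midline barrier between left and right.

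After filtering, 23363 *stag2b*-/- and 17490 wild-type cells were kept, with a median of 13260 and 15309 UMIs per cell. Doublets were called for 10.0% of *stag2b*-/- and 4.31% of wild-type barcodes, and 125 barcodes occurred in both libraries. Transcripts of *stag2b* itself were at 59.5 CPM (UMIs of a gene scaled to the total UMIs of the library or class) in the *stag2b*-/- library and at 108 CPM in the wild-type library. Cells were sorted by raw UMIs of marker genes into 19 classes, each a range of marker counts and not a cell type with a sharp edge. A class has a cell type name where at least 3 fixed markers were raised, and is called by its gating genes otherwise. Gating genes count among these markers, and they were raised because the cells were chosen on them. Outside the gating genes, only 1 marker was raised in neuron-like and in intermediate mesoderm-like cells, in each library. For lateral mesoderm-like, mesoderm progenitor-like and anterior presomitic mesoderm-like cells the number was 2. Fewer cells of a kind and less RNA per cell cannot be told apart in a level over all kept cells, so levels are also given by class.

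Of the 6 genes, *dand5*, *spaw* and *lft1* differed most between the libraries. Over all kept cells, *dand5* and *spaw* were lower and *lft1* was higher in *stag2b*-/-, past a 1.5-fold difference, whereas *gdf3* was higher by less than that, and the intervals of *tdgf1* and *lft2* included no difference. Thus 2 of the 6 genes were past the 1.5-fold on the lower side, where 12.8% of all 23175 genes with at least 20 UMIs were, and 1 was on the higher side, where 22.3% of them were. The median gene was itself higher in *stag2b*-/- by 0.16 on the log2 scale.

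*dand5*, the Nodal antagonist, had 1391 UMIs in the *stag2b*-/- library and 4373 UMIs in the wild-type library. Its level was 4.44 CPM (4.21 to 4.68) in *stag2b*-/- and 16.4 CPM (15.9 to 16.9) in wild type, a log2 ratio of -1.89 (-1.97 to -1.80). *spaw*, the Nodal ligand, was lower as well. It had 184 UMIs in *stag2b*-/- and 367 UMIs in wild type, which is 0.587 CPM (0.505 to 0.678) against 1.38 CPM (1.24 to 1.53) and a log2 ratio of -1.23 (-1.49 to -0.97).

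*lft1* went the other way. It had 1469 UMIs in *stag2b*-/- and 591 UMIs in wild type, or 4.69 CPM (4.45 to 4.93) and 2.22 CPM (2.04 to 2.40), with a log2 ratio of 1.08 (0.94 to 1.22). *gdf3*, the partner of the ligands, had 1767 UMIs in *stag2b*-/- and 1101 UMIs in wild type. Its level of 5.64 CPM (5.38 to 5.91) in *stag2b*-/- and 4.13 CPM (3.89 to 4.38) in wild type gave a log2 ratio of 0.45 (0.34 to 0.56), under the 1.5-fold.

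For the co-receptor gene *tdgf1* the libraries were close. It had 1441 UMIs in *stag2b*-/- and 1184 UMIs in wild type, or 4.60 CPM (4.36 to 4.84) and 4.44 CPM (4.19 to 4.70), and the log2 ratio was 0.05 (-0.06 to 0.16). *lft2* was the rarest of the 6 in UMIs, with 45 in *stag2b*-/- and 43 in wild type. Its log2 ratio of -0.17 (-0.80 to 0.47) leaves room for a difference in either direction at this depth.

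**Figure D1:**
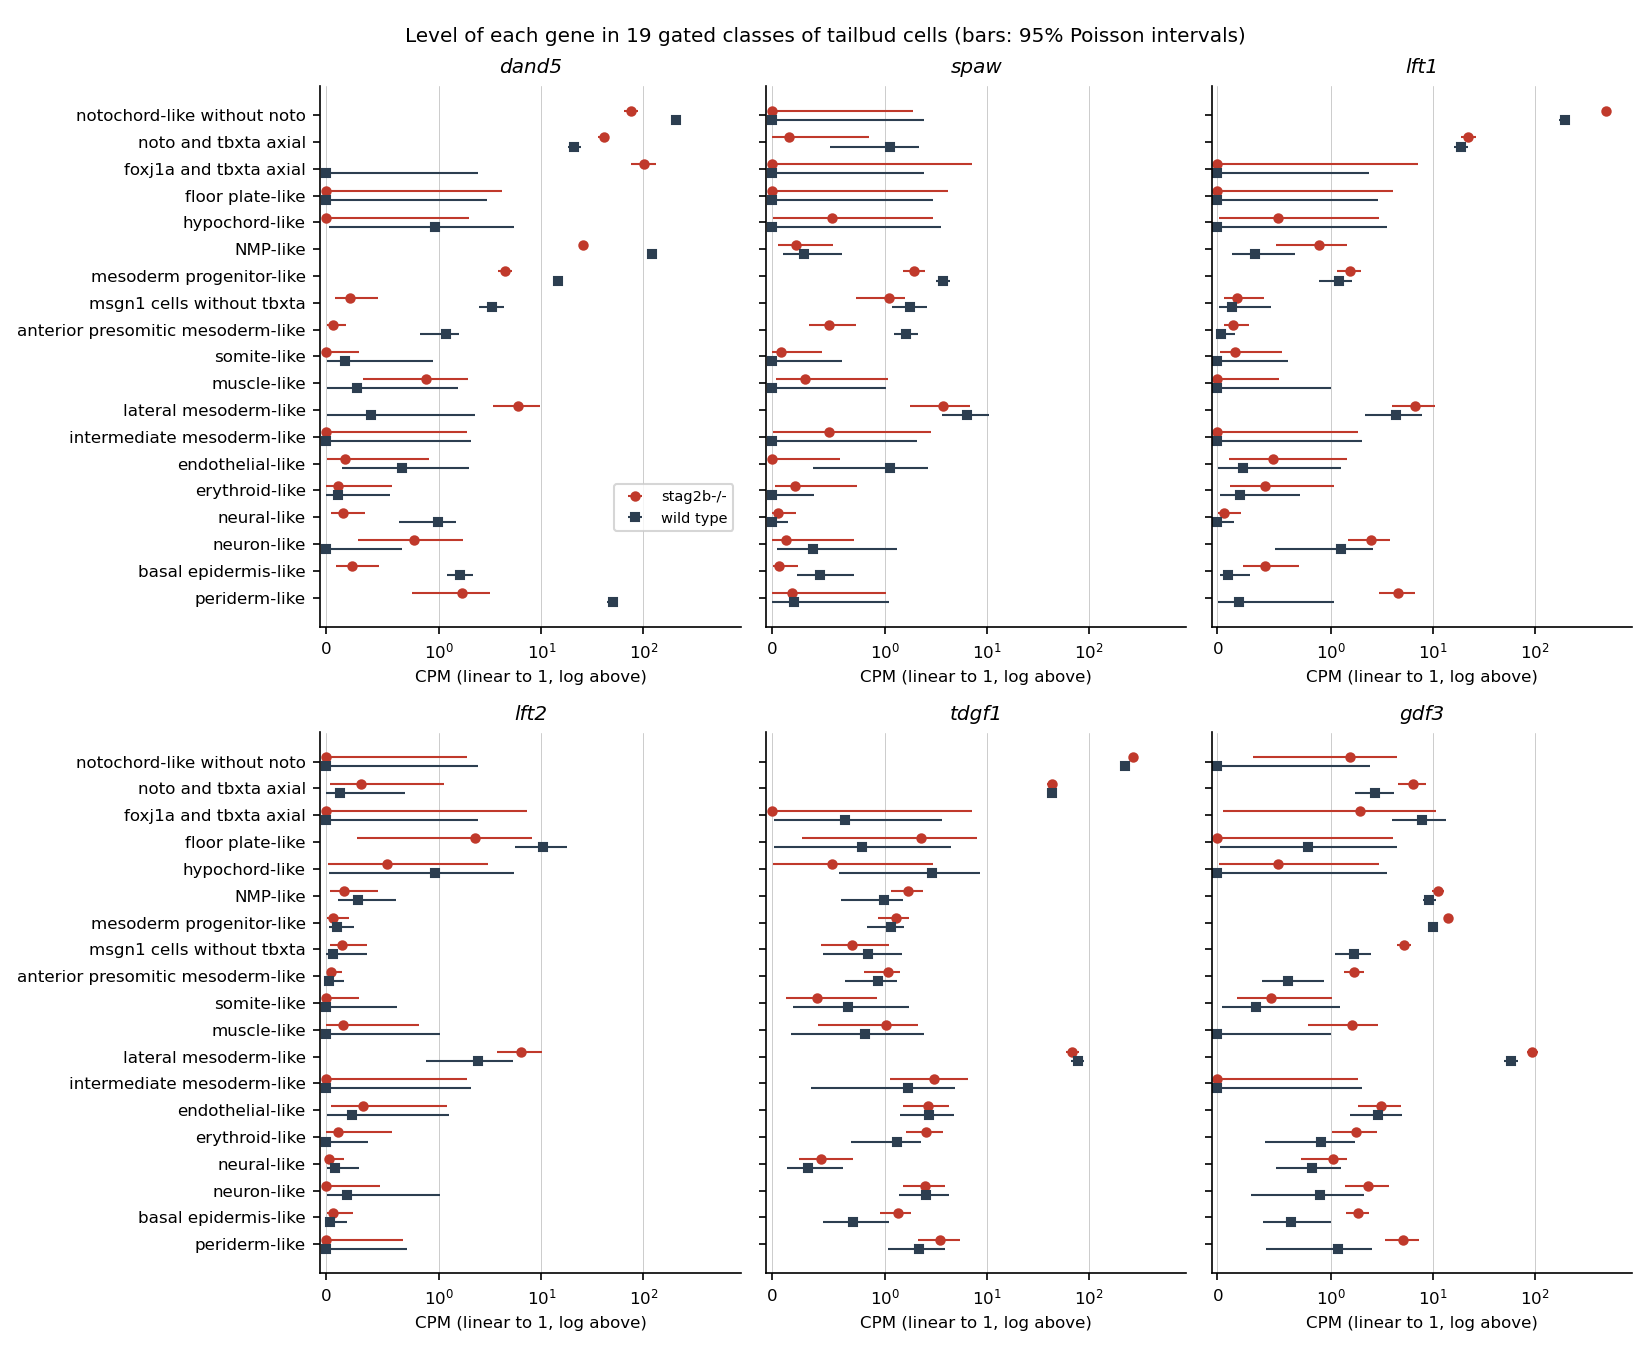
Level of each gene in CPM (horizontal axis, linear up to 1 and logarithmic above) in 19 gated classes of tailbud cells, for *stag2b*-/- (circles) and wild type (squares), with 95% Poisson intervals for the counting of UMIs. *lft1* and *tdgf1* stand highest in notochord-like cells without *noto*, *gdf3* in lateral mesoderm-like cells, while *dand5* is spread over several classes of cells with *tbxta*.

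Most of the *dand5* UMIs came from few cells. In *stag2b*-/-, 121 of 23363 cells (0.518%, Clopper-Pearson 0.430% to 0.619%) held a *dand5* UMI, against 204 of 17490 wild-type cells (1.17%, 1.01% to 1.34%). Basal epidermis-like cells, which should lack the gene, held one in 0.410% of 1708 cells in *stag2b*-/- (median depth 16266 UMIs) and in 0.767% of 1434 cells in wild type (median depth 20376.5 UMIs), so a single UMI is close to background. Of these cells, 0 of 1708 in *stag2b*-/- and 5 of 1434 in wild type held 2 or more. Among periderm-like cells, 1 of 476 and 5 of 489 did. A threshold of 2 UMIs thus lowers this background but does not clear it in wild type.

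Cells with 2 or more *dand5* UMIs are described further, with that limit. There were 75 in *stag2b*-/- (0.321% of cells, 0.253% to 0.402%) and 130 in wild type (0.743%, 0.621% to 0.882%), and they held 96.7% and 98.3% of all *dand5* UMIs of their library. The number of such cells and the level in them were both lower in *stag2b*-/-. The median cell of this kind held 9 *dand5* UMIs in *stag2b*-/- and 13 in wild type, and the richest cell held 80 in *stag2b*-/- and 240 in wild type. Summed over these cells, *dand5* was at 1160 CPM in *stag2b*-/- and 2099 CPM in wild type, a log2 ratio of -0.85, beside a log2 ratio of -1.21 (-1.64 to -0.79) for their share of all kept cells. The cells were chosen on *dand5* counts, so these ratios do not separate fewer cells from less RNA per cell. The 10 richest cells held 40.5% of the *dand5* UMIs in *stag2b*-/- and 34.3% in wild type, so the UMIs are not independent and their intervals are too narrow. Without those 10 cells in each library the log2 ratio was -2.03 (-2.14 to -1.92).

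**Figure D2:**
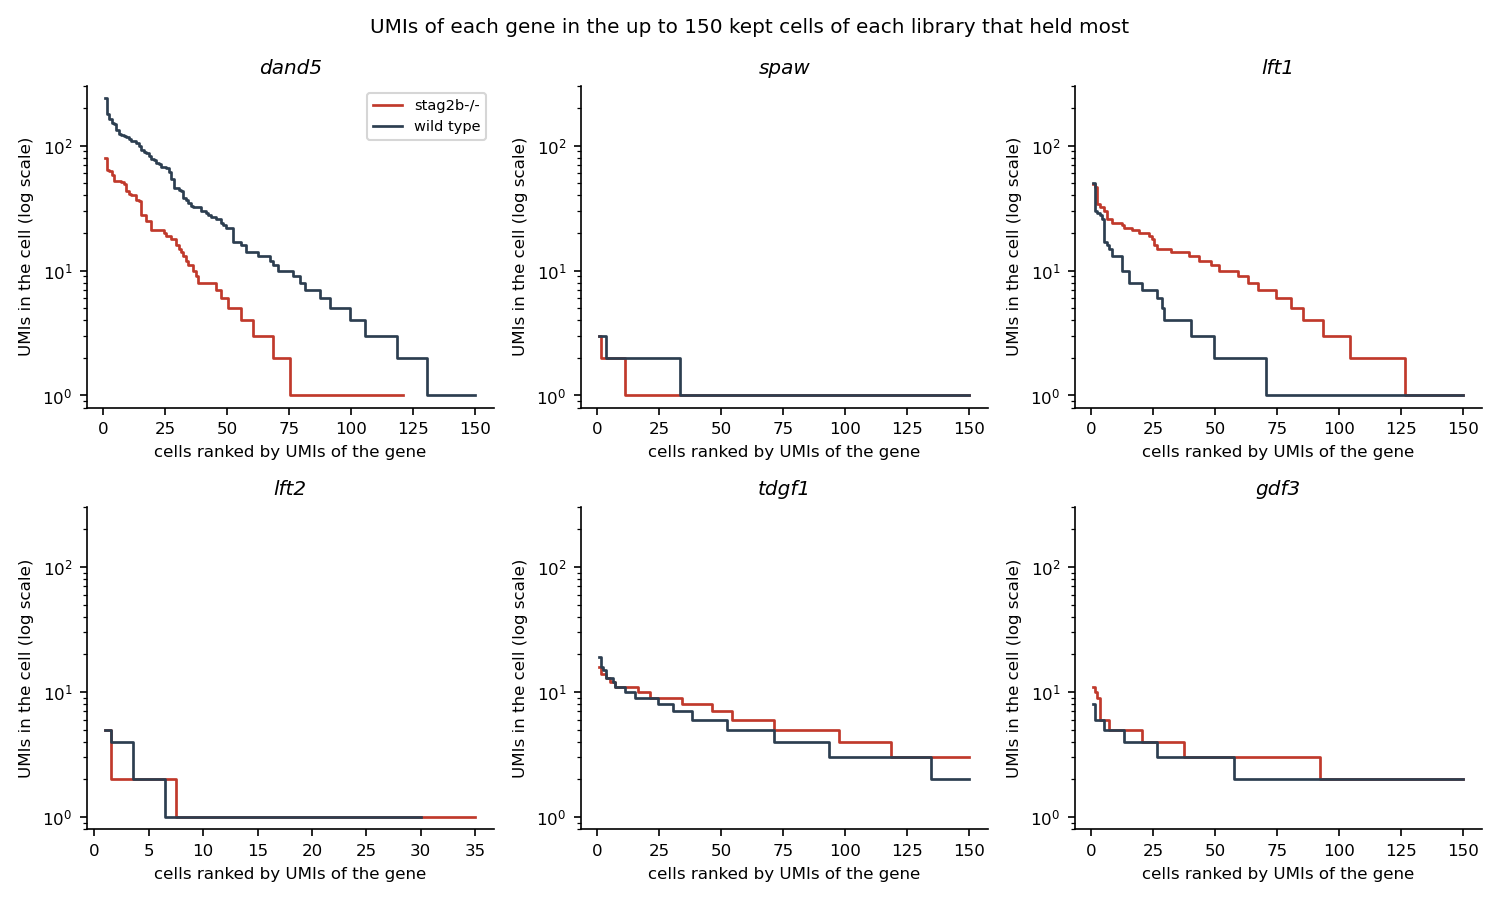
UMIs of each gene per cell (vertical axis, logarithmic) against the rank of the cell, for up to 150 cells of each library, *stag2b*-/- in red and wild type in dark blue. For *dand5* the wild-type line lies above the *stag2b*-/- line at every rank shown, with richest cells of 240 and 80 UMIs, whereas for *lft1* the *stag2b*-/- line lies above at 125 of 150 ranks and the richest cells hold 49 and 50 UMIs. Ranks are not scaled to the 23363 *stag2b*-/- and 17490 wild-type cells kept. The log2 ratio of the shares of kept cells with 2 or more *lft1* UMIs was 0.43 (-0.002 to 0.87), which includes no difference.

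Many of the cells with *dand5* also held axial and progenitor transcripts. Brachyury, encoded by *tbxta* and needed in the notochord and the tailbud, was found in 75 of 75 cells in *stag2b*-/- and in 114 of 130 cells (87.7%) in wild type. The notochord homeobox gene *noto* was found in 54.7% of these cells in *stag2b*-/- and 50.8% in wild type, and *sox2*, a neural and progenitor gene, in 46.7% and 46.2%. Among other kept cells, *noto* was found in 15% in *stag2b*-/- and 20.6% in wild type. The growth factor gene *fgf8a* was found in 80.0% of the *dand5* cells in *stag2b*-/- and 73.1% in wild type, and *wnt8a* in 52.0% and 57.7%. The level of *wnt8a*, a posterior Wnt ligand gene, was lower in *stag2b*-/-. It was at 113 CPM in the *dand5* cells of *stag2b*-/- and at 274 CPM in those of wild type. Not all of these transcripts were axial. The epidermal keratin gene *krt4* was found in 37.3% of the *dand5* cells in *stag2b*-/- and 46.2% in wild type, beside 29.3% and 24.8% of other kept cells. By level, *krt4* was lower in the *dand5* cells than in other kept cells. It was at 48.3 CPM against 563 CPM in *stag2b*-/- and at 586 CPM against 829 CPM in wild type. The presomitic mesoderm gene *msgn1* was found in 58.7% and 49.2% of the *dand5* cells, beside 60.6% and 56.0% of other kept cells. In wild type 5 of the 130 cells were periderm-like, 5 basal epidermis-like and 4 neural-like.

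The 10 genes with the largest ratio to other cells, chosen on these same cells and so only a description, were *capsla*, *gas2b*, *abcc6a*, *s1pr1*, *tbata*, *si:dkey-11c5.11*, *BX465208.1*, *ENSDARG00000076547*, *metrnlb* and *BX548046.2*. The calcium-binding protein gene *capsla* led them at 544 CPM in *stag2b*-/- and 456 CPM in wild type, and was found in 69 of 75 and in 109 of 130 of the cells, whereas it was found in 0.842% of other cells in *stag2b*-/- and 0.357% in wild type. The transporter gene *abcc6a* was at 94.9 CPM in *stag2b*-/- and 92.8 CPM in wild type in these cells. *s1pr1*, a sphingosine-1-phosphate receptor gene, differed between the libraries. It had 2 UMIs (1.73 CPM) in the *dand5* cells of *stag2b*-/- and 88 UMIs (43.0 CPM) in those of wild type. *s1pr1* met the minimum of UMIs for this list through its wild-type count, so its choice was not independent of the difference. In other kept cells it was lower in *stag2b*-/- as well, at 0.295 CPM against 1.11 CPM in wild type. Whether the difference is particular to the *dand5* cells was not tested. *enkur*, the gene of a protein of sperm and motile cilia, was chosen after its values were seen. It was found in 77.3% of the *dand5* cells in *stag2b*-/- and 80.0% in wild type, against 6.08% and 13.1% of other cells.

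Apart from *tbxta*, the markers listed for a ciliated vesicle epithelium were found in few of these cells. Of them, *foxj1a*, the master regulator of motile cilia, was found in 2 of 75 cells in *stag2b*-/- and in 7 of 130 in wild type, below its share in other cells (4.12% and 6.77%). *cftr*, the chloride channel gene of the vesicle, was found in 2 cells in *stag2b*-/- and 7 in wild type, and *sox17*, an endoderm and vesicle gene, in 4 and 3. These shares, although small, were above those of other cells, which were 0.133% and 0.317% for *cftr* and 0.249% and 0.490% for *sox17*. The endoderm gene *sox32* was found in 3 cells in *stag2b*-/-, or 4.0% against 0.180% of other cells, and in 0 of 130 cells in wild type, which allows a share of up to 2.31%. *rfx4* was found in 4.0% of the *dand5* cells in *stag2b*-/- and 3.85% in wild type, against 15% and 14.2% of other cells, and *dnah9* in 2 cells of *stag2b*-/- and in 0 of 130 of wild type. With so few cells holding these markers, the cells are called here by *dand5* alone and not by a cell type.

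**Figure D3:**
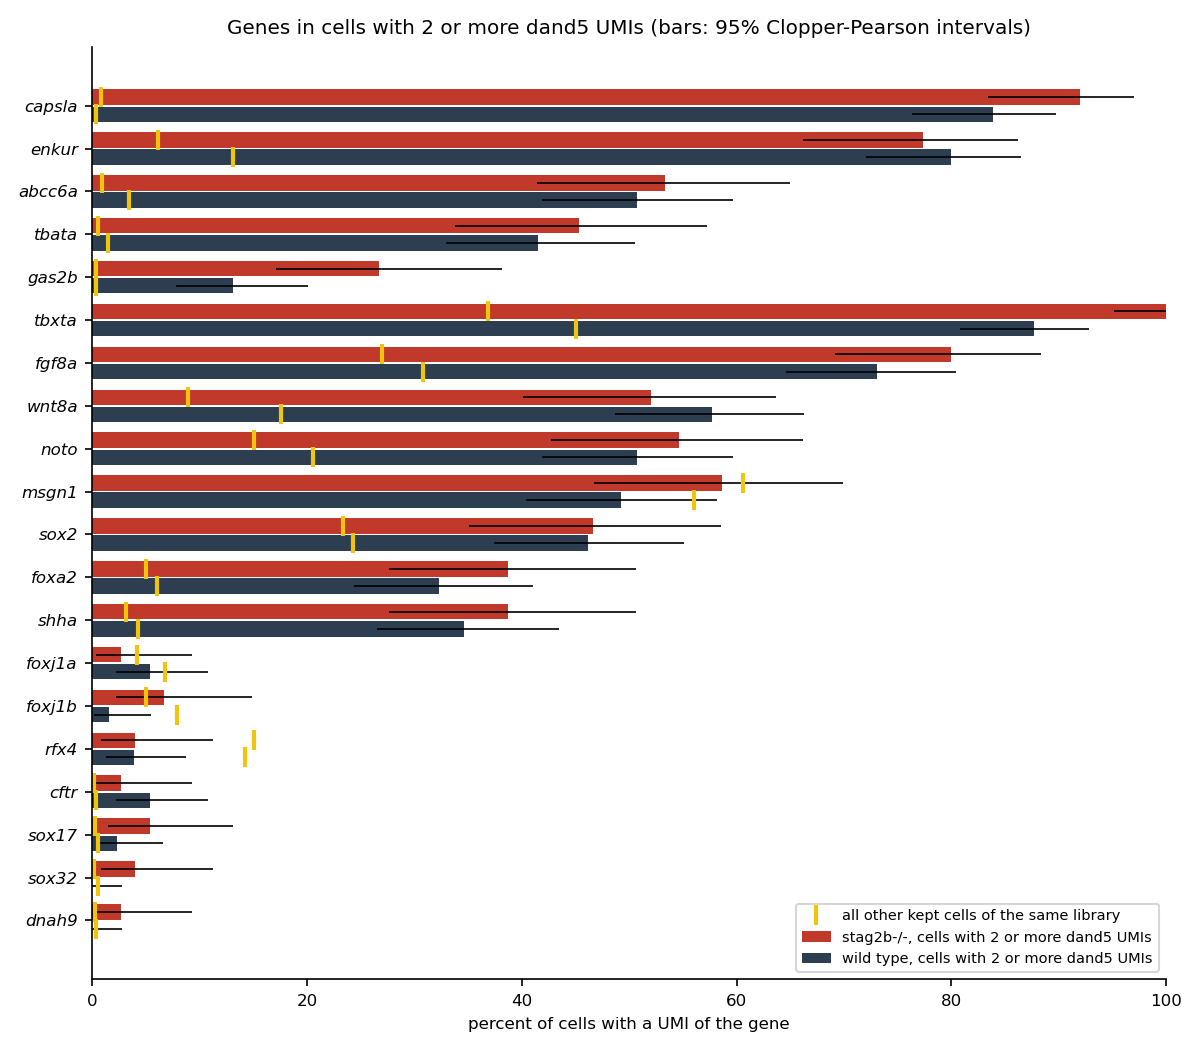
Percent of cells with a UMI of each gene among cells with 2 or more *dand5* UMIs, 75 in *stag2b*-/- (upper bar of each pair) and 130 in wild type (lower bar), with 95% Clopper-Pearson intervals; yellow ticks mark the percent among all other kept cells of the same library. *capsla* and *tbxta* are found in most of these cells, and *foxj1a*, *rfx4* and *dnah9* in few.

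By class, the direction and the size of the *dand5* difference varied. Cells that met no gate held 16.0% of all *dand5* UMIs in *stag2b*-/- and 6.47% in wild type. Of the cells with 2 or more *dand5* UMIs, 18 and 25 were among them. Their *dand5* level was 4.43 CPM in *stag2b*-/- and 6.21 CPM in wild type. That is a log2 ratio of -0.49 (-0.75 to -0.23), under the 1.5-fold. In NMP-like (neuromesodermal progenitor-like) cells, gated on *tbxta* with *sox2*, there were 490 *dand5* UMIs in 1112 *stag2b*-/- cells and 2577 *dand5* UMIs in 1123 wild-type cells. The level was 25.7 CPM (23.5 to 28.1) in *stag2b*-/- and 122 CPM (117 to 127) in wild type, a log2 ratio of -2.24 (-2.38 to -2.10). It was -1.79 with at most 5% mitochondrial UMIs, -1.89 in cells thinned to 5000 UMIs and -2.54 with called doublets left in. NMP-like cells held 35.2% of all *dand5* UMIs in *stag2b*-/- and 58.9% in wild type, with 18 and 36 of the cells that had 2 or more. The NMP-like class was itself a smaller share of kept cells in *stag2b*-/- (4.76%) than in wild type (6.42%). Its median cell held 0 *noto* UMIs in *stag2b*-/- and 1 in wild type, and the part of this in the *dand5* difference was not tested.

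In mesoderm progenitor-like cells, with *tbxta* but neither *sox2* nor *noto*, the level was 4.38 CPM (3.72 to 5.13) in *stag2b*-/- and 14.5 CPM (13.3 to 15.7) in wild type, a log2 ratio of -1.72 (-1.99 to -1.47). In cells gated on *noto* and *tbxta* without *sox2* it was higher in *stag2b*-/-, at 41.0 CPM (36.2 to 46.3), than in wild type, at 21.1 CPM (18.0 to 24.5), a log2 ratio of 0.96 (0.68 to 1.25). That difference lay in 14 cells with 2 or more UMIs in each library. Without the 10 richest cells of each library the log2 ratio was -0.16 (-1.31 to 0.95) there and -3.43 (-3.76 to -3.12) in NMP-like cells. In NMP-like cells this left out 10 of 18 cells with 2 or more UMIs in *stag2b*-/- and 10 of 36 in wild type. The unequal parts left out mean that the value of -3.43 cannot be read as a larger difference.

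Among classes with at least 50 cells in each library, the highest *dand5* level over both libraries was in notochord-like cells without *noto*, gated on *tbxta* and *shha* or *shhb*. It was at 75.5 CPM (63.8 to 88.7) in *stag2b*-/- and 208 CPM (186 to 233) in wild type, a log2 ratio of -1.47 (-1.76 to -1.18). All of these UMIs came from 6 of 103 cells in *stag2b*-/- and 4 of 75 cells in wild type, and the ratio was -0.85 with called doublets left in, -2.61 at a gate of 3 UMIs and -1.06 at a gate of 1 UMI. *lft1* was found in 0 of these cells in either library. The median cell of the class held 60 and 49 UMIs of the collagen gene *col2a1a*. Of all cells with 2 or more *dand5* UMIs, *col2a1a* was found in 0 of 75 in *stag2b*-/- and 4 of 130 in wild type. In *stag2b*-/- the 6 *dand5* cells of this class thus held no *col2a1a* UMI, unlike its median cell. In wild type the class of the 4 cells with *col2a1a* was not determined. The 4 wild-type *dand5* cells of this class can therefore not be set against its typical cells by *col2a1a*. Among the same classes the order of levels in *stag2b*-/- was then the *noto* and *tbxta* cells, NMP-like cells and, with intervals that overlap, lateral mesoderm-like (5.93 CPM, 3.39 to 9.63) and mesoderm progenitor-like cells. In wild type, NMP-like cells came next, followed by periderm-like cells (49.8 CPM, 43.9 to 56.3), the *noto* and *tbxta* cells and mesoderm progenitor-like cells, with intervals that do not overlap. The periderm-like value came from 7 of 489 cells, 1 of them with 108 UMIs, and in *stag2b*-/- the same class was at 1.65 CPM (0.755 to 3.14), with 9 UMIs in 3 of 476 cells.

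Cells gated on *foxj1a* and *tbxta* without *shha*, the gate meant for vesicle cells, gave little. All 52 *dand5* UMIs of this class in *stag2b*-/- came from 1 of 25 cells, a level of 101 CPM (75.6 to 133), and in wild type 0 of 79 cells had 1, which allows a share of up to 3.80%. No *cftr* or *sox17* UMI was seen in them in either library, at limits of 12% in *stag2b*-/- and 3.80% in wild type. In floor plate-like cells, which express *shha* without *tbxta*, *dand5* was found in 0 of 75 cells in *stag2b*-/- and 0 of 82 in wild type, with limits of 4.0% and 3.66%.

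The other 5 genes were counted in the same cells. Of the 75 *stag2b*-/- and 130 wild-type cells with 2 or more *dand5* UMIs, *lft1* was found in 1 and 2, *tdgf1* in 1 and 2, *gdf3* in 5 and 4, and *spaw* and *lft2* in 0 and 0, which allows shares of up to 4.0% and 2.31%. For *lft1* these were shares of 1.33% in *stag2b*-/- and 1.54% in wild type, beside 1.02% and 0.887% of other kept cells. For *tdgf1* the shares were the same, beside 2.46% and 2.82% of other cells, and for *gdf3* they were 6.67% and 3.08%, beside 5.72% and 4.71%. In the other cells *spaw* was found in 0.739% and 1.91% and *lft2* in 0.150% and 0.173%, all below the limits for the *dand5* cells. Read from the other side, 0 of 226 *stag2b*-/- and 0 of 201 wild-type cells with 2 or more *tdgf1* UMIs held a *dand5* UMI, with limits of 1.33% and 1.49%. Among all kept cells *dand5* was found in 0.518% and 1.17%, also below these limits, so the counts of 0 do not show that the 2 genes avoid each other.

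*lft1* and *tdgf1* were found together in the notochord. The notochord-like class without *noto* had 103 cells in *stag2b*-/- and 75 cells in wild type, and 7 and 9 of its 9 markers were raised, among them the notochord genes *col9a1b*, *col8a1a* and *loxl5b*. Of the raised markers, 5 in *stag2b*-/- and 6 in wild type were not gating genes. The class held 67.4% of all *lft1* UMIs in *stag2b*-/- and 50.9% in wild type, and 36.4% and 29.4% of all *tdgf1* UMIs. Only 3 of the 6 genes had at least 20 UMIs in this class. *dand5* was past the 1.5-fold on the lower side, where 12.8% of 9272 genes were, and *lft1* on the higher side, where 15.4% were.

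*lft1* had 990 UMIs in these cells in *stag2b*-/- and 301 UMIs in wild type. That is 505 CPM (474 to 537) in *stag2b*-/- and 197 CPM (175 to 220) in wild type, with a log2 ratio of 1.36 (1.17 to 1.55). More cells held it and the typical cell held more. It was found in 77 of 103 cells (74.8%, 65.2% to 82.8%) in *stag2b*-/- and in 42 of 75 cells (56.0%, 44.1% to 67.5%) in wild type, and in cells thinned to 5000 UMIs in 71.4% (61.4% to 80.1%) and 35.7% (24.6% to 48.1%). In basal epidermis-like cells the share was 0.117% in *stag2b*-/- and 0.209% in wild type. The median cell held 7 *lft1* UMIs in *stag2b*-/- (quartiles 0.5 and 14.5) and 1 in wild type (quartiles 0 and 4).

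The richest cells did not differ in this way, with 49 *lft1* UMIs in *stag2b*-/- and 50 in wild type. In wild type the 10 richest notochord-like cells held 69.4% of the class's *lft1* UMIs, against 32.7% in *stag2b*-/-. Without these 10 cells in each library the log2 ratio was 2.38 (2.06 to 2.71). The unequal parts left out mean that this value cannot be read as a larger difference. In the *noto* and *tbxta* cells, *lft1* was at 22.5 CPM (18.9 to 26.4) in *stag2b*-/- and 19 CPM (16.1 to 22.2) in wild type, and the interval of the log2 ratio of 0.24 (-0.09 to 0.58) included no difference. In *stag2b*-/- *lft1* was also found in periderm-like cells at 4.59 CPM (2.97 to 6.77), with 25 UMIs in 3 cells, against 0.195 CPM (0.00493 to 1.08) in wild type, with 1 UMI.

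*tdgf1* was at 267 CPM (245 to 291) in notochord-like cells without *noto* in *stag2b*-/- and at 227 CPM (204 to 253) in wild type. The log2 ratio was 0.23 (0.03 to 0.43), and it was 0.70 (0.48 to 0.92) at a gate of 1 UMI, past the 1.5-fold. Its interval included no difference with called doublets left in (0.15, -0.04 to 0.35) and in cells thinned to 5000 UMIs (0.09, -0.36 to 0.55). The same held with size factors from the median gene (0.20, -0.003 to 0.39). No difference was excluded at a gate of 3 UMIs (0.23), with at most 5% mitochondrial UMIs (0.25) and without the 10 richest cells (0.41). *tdgf1* was found in 82 of 103 cells (79.6%) in *stag2b*-/- and in 57 of 75 cells (76.0%) in wild type, with a median of 5 UMIs and 3 UMIs per cell. In basal epidermis-like cells the share was 1.93% in *stag2b*-/- and 1.32% in wild type. NMP-like cells, with 1.35% and 1.69%, were at that background. In the *noto* and *tbxta* cells the level was 43.36 CPM (38.4 to 48.8) in *stag2b*-/- and 43.2 CPM (38.7 to 48.0) in wild type, and the log2 ratio was 0.01 (-0.23 to 0.24).

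Both genes were found in 74 of the 103 notochord-like cells (71.8%) in *stag2b*-/- and in 41 of 75 (54.7%) in wild type. Of all cells with 2 or more *lft1* UMIs, 117 of 126 (92.9%) in *stag2b*-/- and 55 of 70 (78.6%) in wild type also held *tdgf1*, and 119 of 126 and 56 of 70 held *col2a1a*, a notochord and cartilage collagen gene. The reverse did not hold to the same degree, since 125 of 226 *tdgf1* cells (55.3%) in *stag2b*-/- and 75 of 201 (37.3%) in wild type held *lft1*. The hedgehog ligand gene *shha*, made by notochord and floor plate, was at 467 CPM in this class in *stag2b*-/- and 573 CPM in wild type, and *tbxta* was at 1099 CPM and 1163 CPM.

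**Figure D4:**
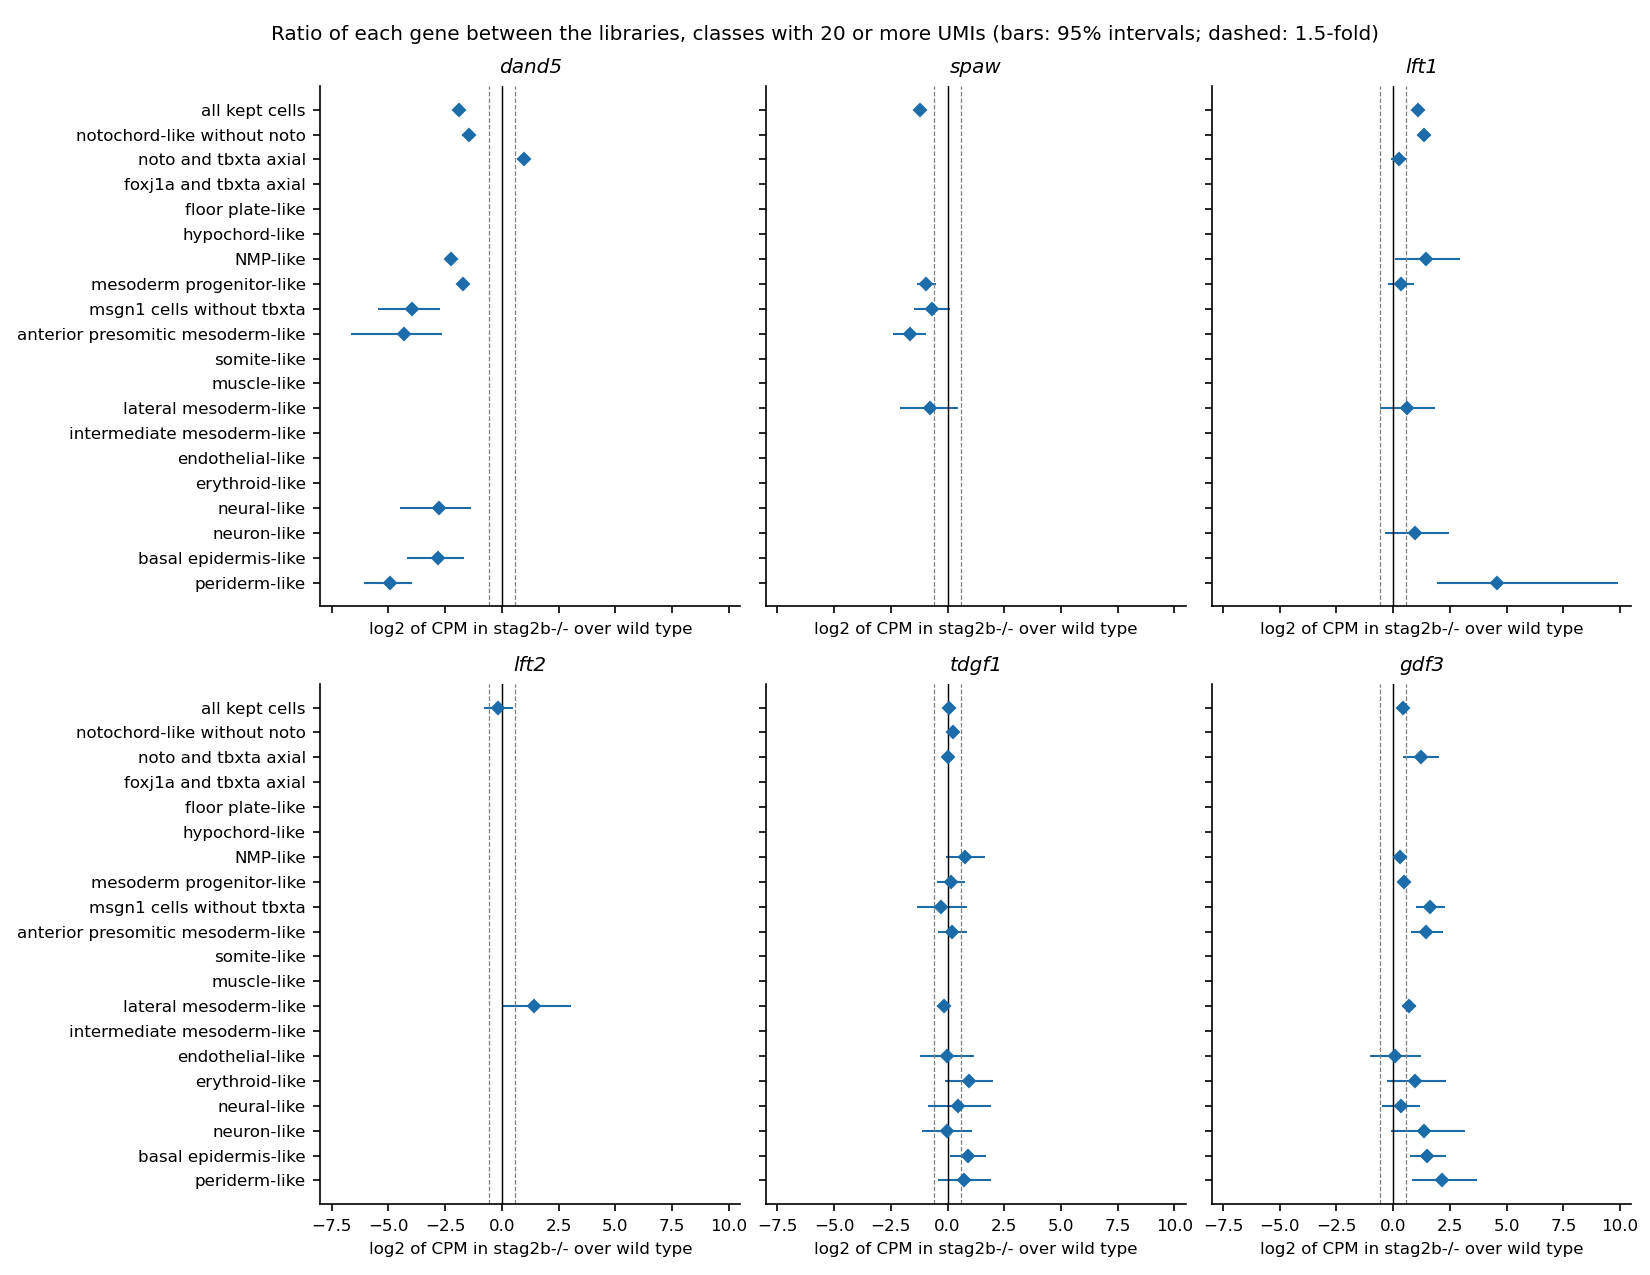
Log2 ratio of CPM in *stag2b*-/- over wild type for each gene, over all kept cells and in each class with at least 20 UMIs of the gene and UMIs in both libraries, with 95% intervals; dashed lines mark the 1.5-fold. *dand5* lies at -2.24 in NMP-like cells and at 0.96 in the *noto* and *tbxta* cells, *lft1* at 1.36 in notochord-like cells without *noto*, and every *spaw* value lies below 0. The *spaw* intervals include 0 in lateral mesoderm-like cells and in *msgn1* cells without *tbxta*.

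*gdf3* was scarce in notochord-like cells without *noto*, with 3 UMIs in *stag2b*-/- and 0 in wild type. Its level was highest in lateral mesoderm-like cells, gated on *hand2*, a gene of heart and lateral plate progenitors, with 199 cells in *stag2b*-/- and 170 in wild type. The other fixed markers *gata5* and *bmp4* were raised in this class, and *gata6*, *tbx20*, *foxf1*, *foxf2a* and *tbx5a* were not. *gdf3* was at 95.2 CPM (83.9 to 108) there in *stag2b*-/- and 58.8 CPM (49.6 to 69.1) in wild type, a log2 ratio of 0.70 (0.40 to 1.0), with 257 UMIs and 147 UMIs. It was found in 99 of 199 cells (49.7%) in *stag2b*-/- and in 62 of 170 (36.5%) in wild type, against 2.75% and 1.12% in basal epidermis-like cells. With called doublets left in, the log2 ratio was 0.48 (0.21 to 0.75), under the 1.5-fold.

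Mesoderm progenitor-like and NMP-like cells held more of its UMIs at a lower level. In mesoderm progenitor-like cells *gdf3* was at 14.0 CPM (12.8 to 15.3) in *stag2b*-/- and 10.0 CPM (9.06 to 11) in wild type, a log2 ratio of 0.48 (0.29 to 0.68). In NMP-like cells it was at 11.4 CPM (9.93 to 13.0) in *stag2b*-/- and 9.30 CPM (8.05 to 10.7) in wild type, a log2 ratio of 0.29 (0.01 to 0.58), and these intervals overlap those of mesoderm progenitor-like cells. The class gated on *msgn1*, a gene of presomitic mesoderm, without *tbxta* showed a larger ratio, 5.27 CPM in *stag2b*-/- and 1.71 CPM in wild type, with a log2 ratio of 1.63 (1.02 to 2.29). The *noto* and *tbxta* cells held *gdf3* at 6.35 CPM in *stag2b*-/- and 2.75 CPM in wild type, a log2 ratio of 1.21 (0.43 to 2.03). In somite-like cells *gdf3* was low, at 0.476 CPM in *stag2b*-/- and 0.338 CPM in wild type. In anterior presomitic mesoderm-like cells it was at 1.70 CPM in *stag2b*-/- and 0.623 CPM in wild type, a log2 ratio of 1.45 (0.76 to 2.20), and its level in basal epidermis-like cells was raised by a similar 1.51 (0.75 to 2.32), at 1.85 CPM against 0.653 CPM. The part of this background in the low levels of the other classes was not tested.

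*tdgf1* was also found in lateral mesoderm-like cells, at 68.5 CPM (59.0 to 79.2) in *stag2b*-/- and 77.5 CPM (67.0 to 89.3) in wild type, with a log2 ratio of -0.18 (-0.48 to 0.12). It stood below the notochord-like class without *noto* and above the *noto* and *tbxta* cells in both libraries, with intervals that do not overlap. Of cells with 2 or more *gdf3* UMIs, 52 of 262 (19.8%) in *stag2b*-/- and 30 of 177 (16.9%) in wild type held *tdgf1*.

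*spaw* was thinly counted, with at most 3 UMIs in any cell of either library. By level it was highest in lateral mesoderm-like cells, at 3.70 CPM (1.78 to 6.81) in *stag2b*-/- and 6.39 CPM (3.66 to 10.4) in wild type. That rests on 10 UMIs and 16 UMIs, and the log2 ratio of -0.79 (-2.09 to 0.44) included no difference; in cells thinned to 5000 UMIs it was 0.00 (-2.12 to 2.12). Mesoderm progenitor-like cells held more of its UMIs, 68 in *stag2b*-/- and 152 in wild type, at 1.94 CPM (1.5 to 2.45) and 3.69 CPM (3.13 to 4.33), intervals that overlap those of the lateral class. The log2 ratio in them was -0.93 (-1.37 to -0.51). It was found in 2.48% of mesoderm progenitor-like cells in *stag2b*-/- and 5.34% in wild type, against 0.117% and 0.837% of basal epidermis-like cells.

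Anterior presomitic mesoderm-like cells, gated on the *mesp* genes, had 26 *spaw* UMIs in *stag2b*-/- and 57 in wild type, or 0.509 CPM and 1.61 CPM, with a log2 ratio of -1.66 (-2.39 to -0.97). The *msgn1* cells without *tbxta* had 31 *spaw* UMIs in *stag2b*-/- and 27 in wild type. Their log2 ratio of -0.69 (-1.49 to 0.11) included no difference. Cells with 2 or more *spaw* UMIs numbered 11 in *stag2b*-/- and 33 in wild type. *msgn1* was found in 11 of 11 and 30 of 33 of them and *tbxta* in 4 and 22, and *hand2* in 4 of the 33 in wild type. In notochord-like cells without *noto*, *spaw* was found in 0 of 103 cells in *stag2b*-/- and 0 of 75 in wild type, with limits of 2.91% and 4.0%.

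*lft2* had its highest level over both libraries in floor plate-like cells, at 2.23 CPM (0.270 to 8.05) in *stag2b*-/- and 10.3 CPM (5.51 to 17.7) in wild type. With 2 UMIs in 2 cells and 13 UMIs in 5 cells, the log2 ratio was -2.21 (-5.40 to -0.07), on fewer UMIs than the minimum of 20. In lateral mesoderm-like cells *lft2* was at 6.30 CPM (3.67 to 10.1) in *stag2b*-/- and 2.40 CPM (0.880 to 5.22) in wild type, with 17 UMIs in 9 cells and 6 UMIs in 4 cells. The log2 ratio there was 1.39 (-0.02 to 3.02). Intervals of the 2 classes overlap in each library.

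In lateral mesoderm-like cells 3 of the 5 genes with at least 20 UMIs (*gdf3*, *lft1* and *lft2*) were past the 1.5-fold on the higher side, against 18.8% of 10719 genes, and 1 (*spaw*) on the lower side, against 10.4%. Only the interval of *gdf3* excluded no difference. In NMP-like cells the numbers were 2 of 4 on the higher side (*lft1* and *tdgf1*, at 0.893 CPM and 1.68 CPM in *stag2b*-/- and at 0.331 CPM and 0.992 CPM in wild type), against 18.0% of 16257 genes, and 1 of 4 (*dand5*) on the lower side, against 12.9%. The log2 ratio of *tdgf1* there was 0.76 (-0.08 to 1.63), an interval that included no difference, and its shares of NMP-like cells, 1.35% in *stag2b*-/- and 1.69% in wild type, lay beside 1.93% and 1.32% of basal epidermis-like cells. The log2 ratio of *lft1* in NMP-like cells was 1.43 (0.09 to 2.95), from 17 and 7 UMIs. In basal epidermis-like cells it was 2.11 (0.25 to 4.56), from 13 and 3 UMIs.

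The wider pathway list held 48 further genes with at least 20 UMIs. Of these, 11 (22.9%) were past the 1.5-fold on the lower side over all kept cells and 9 (18.8%) on the higher side, beside 12.8% and 22.3% of all genes, and their median log2 ratio was 0.12, beside 0.16 for all genes. With size factors from the median gene the counts were 15 and 5.

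The lower genes were mainly those of the vesicle and of motile cilia. Of these, 8 of 16 were past the 1.5-fold on the lower side, beside 12.8% of all genes. None was past it on the higher side, beside 22.3% of all genes, and their median log2 ratio was -0.54. *foxj1a* was at 7.94 CPM in *stag2b*-/- and 12.2 CPM in wild type, a log2 ratio of -0.62 (-0.70 to -0.55), and its paralog *foxj1b* was at 5.20 CPM and 8.95 CPM. The dynein docking gene *ccdc151* was at 1.29 CPM in *stag2b*-/- and 3.73 CPM in wild type, a log2 ratio of -1.53 (-1.70 to -1.37), and the dynein assembly gene *dnaaf1* was at 1.36 CPM and 2.63 CPM. *sox32* had 51 UMIs in *stag2b*-/- and 129 in wild type, a log2 ratio of -1.57 (-2.07 to -1.09), and *sox17* and *cftr* had ratios of -0.76 and -1.25. The hyaluronan synthase gene *has2* was at 39.8 CPM in *stag2b*-/- and 60.7 CPM in wild type. Of kept cells, 0.107% in *stag2b*-/- and 0.452% in wild type were gated on *foxj1a* and *tbxta*. Floor plate-like cells were 0.321% and 0.469%. The part of these shares in the lower levels was not tested.

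Nodal ligand genes other than *spaw* were scarce. *ndr2* had 25 UMIs in *stag2b*-/- and 37 in wild type, a log2 ratio of -0.80 (-1.59 to -0.03), and *ndr1* had 8 and 13 UMIs, with an interval that included no difference (-0.93, -2.41 to 0.45; named for its count, after its value was seen). *bicc1b*, of an RNA-binding family that acts on *dand5* transcripts in mouse, had a log2 ratio of -0.68 (-1.02 to -0.34).

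Among receptor genes 3 of 6 were past the 1.5-fold on the higher side, with a range of log2 ratios from -0.10 to 0.80, and among transducers 2 of 7, with a range from -0.52 to 1.55, beside 22.3% of all genes. The activin receptor genes *acvr1bb*, *acvr2ab* and *acvr2bb* had log2 ratios of 0.63, 0.66 and 0.80. *smad3a* was at 167 CPM in *stag2b*-/- and 105 CPM in wild type, a log2 ratio of 0.68 (0.66 to 0.70). The homeobox gene *mixl1* had 200 UMIs in *stag2b*-/- and 58 in wild type, a log2 ratio of 1.55 (1.12 to 2.0). The convertase gene *furinb*, the Smad repressor gene *skia* and the polycystin gene *pkd1a* had log2 ratios of 0.75, 0.65 and 0.78. Relative to the median gene, which was itself at 0.16, *acvr1bb*, *acvr2ab*, *smad3a* and *skia* were under the 1.5-fold.

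Within the leading classes the list gave small numbers. In notochord-like cells without *noto*, 3 of 23 further genes (13.0%) were lower and 4 (17.4%) were higher, beside 12.8% and 15.4% of all genes. In lateral mesoderm-like cells 4 of 30 (13.3%) were lower and 9 (30.0%) were higher, beside 10.4% and 18.8% of all genes. In NMP-like cells 9 of 40 (22.5%) were lower and 5 (12.5%) were higher, beside 12.9% and 18.0% of all genes. Among the lower genes there were *foxj1a*, *foxj1b*, *ccdc151* and *dnaaf1*. The connexin gene *cx43.4* had the highest level of the list in notochord-like cells without *noto*, at 1618 CPM in *stag2b*-/- and 1071 CPM in wild type, in lateral mesoderm-like cells, at 929 CPM and 674 CPM, and in floor plate-like cells, at 830 CPM and 578 CPM.

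Over all kept cells *noto*, *wnt8a* and *tbxta*, found in many *dand5* cells, were lower in *stag2b*-/- as well, and their part in the *dand5* difference was not tested. *noto* was at 47.1 CPM in *stag2b*-/- and 104 CPM in wild type, a log2 ratio of -1.15 (-1.18 to -1.12), *wnt8a* was at 11.7 CPM and 39.9 CPM, a log2 ratio of -1.77 (-1.82 to -1.71), and *tbxta* was at 147 CPM and 210 CPM, a log2 ratio of -0.51 (-0.53 to -0.49). *sox2* differed less, at 43.1 CPM in *stag2b*-/- and 46.1 CPM in wild type, a log2 ratio of -0.10 (-0.13 to -0.06). The share of kept cells gated on *noto* and *tbxta* was 2.12% in *stag2b*-/- and 3.37% in wild type, and that of mesoderm progenitor-like cells was 11% and 14.8%. For the notochord-like class without *noto*, where *lft1* differed, the shares were 0.441% and 0.429%, and for the lateral mesoderm-like class they were 0.852% and 0.972%.

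Across 18 classes and both libraries (36 points), the 6 genes had different profiles of log2(CPM + 1). This is a description, since the points share libraries and depth. *lft1* and *tdgf1* were the closest pair, with a Pearson r of 0.907, and *spaw* and *gdf3* followed at 0.719. *dand5* had an r of 0.673 with *lft1*, 0.572 with *tdgf1* and 0.0570 with *spaw*. A class profile does not show whether genes share cells, and the *dand5* level of the notochord-like class came from 6 and 4 cells. *lft1* and *tdgf1* were each found in 1 of 75 and 2 of 130 *dand5* cells (1.33% and 1.54%). In other kept cells the shares were 1.02% and 0.887% for *lft1* and 2.46% and 2.82% for *tdgf1*. Outside the 6, the genes most like *dand5* were *abcc6a* (0.887), *CABZ01076996.1* (0.866) and the growth factor gene *fgf3* (0.854). For *lft1* they were *paqr4b* (0.956), *cmn* (0.951) and *si:ch211-244b2.3* (0.948), and for *tdgf1* they were *col6a1* (0.944), *pcolcea* (0.925) and *caskin1* (0.868). For *gdf3* they were *prrx1b* (0.809), *brinp3a.1* (0.799) and *CR847571.2* (0.779), for *spaw* *CR762480.1* (0.799), *fbln1* (0.789) and *angpt4* (0.765), and for *lft2*, on 88 UMIs in all, *twist1b* (0.905), *hdac7a* (0.821) and *ENSDARG00000105285* (0.810).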

How the data were processed

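Per the labels and methods, the authors mapped the reads of each library to GRCz11 and a published zebrafish transcriptome with Cell Ranger 7.1.0, counting intronic reads too. The deposited values are raw UMI counts for barcodes called as cells (the files hold no doublet calls). The members and gene lists were chosen with earlier results of these data known, and gate thresholds and exclusions were set after values had been seen.

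Kept cells had at least 200 genes, no more than the 98th percentile of genes and at most 15% mitochondrial UMIs, and were not called doublets by Scrublet (Scanpy 1.11.5, in Python 3.11.15). Cells entered the first of 19 gates they met (at least 2 UMIs of each defining marker, 0 of the excluding ones). A marker was raised where its CPM was at least 2 times that of other cells and 10% of cells held it. Of cells in the notochord-like class without *noto*, 12.6% in *stag2b*-/- and 17.3% in wild type lay at the threshold, and of NMP-like cells 37.1% and 33.9%. Median UMIs of *krt4*, *hand2*, *elavl3* and *gata1a* were 0 in both classes. In NMP-like cells the median of *noto* was 0 in *stag2b*-/- and 1 in wild type, and that of *msgn1* was 1 and 0. Cells that met no gate were 17.7% and 19.2%.

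CPM were computed from the UMIs summed in each class of a library, with Poisson intervals (exact). Shares have Clopper-Pearson intervals and log2 ratios, *stag2b*-/- over wild type, exact conditional binomial intervals. A share of 0 is given with the limit that 3 counts allow. Genes past the fold differed by at least 1.5-fold with at least 20 UMIs over both libraries. Named genes are the 6 members, genes of the pathway list past the fold with at least 50 UMIs or highest in a leading class, the 3 genes with the most similar class profile (at least 200 UMIs), and the 10 genes with the largest ratio in *dand5* cells (at least 50 UMIs there); other genes named are class markers or are marked as chosen after their values were seen. Leading classes have at least 50 cells in each library. The ratio and thinning steps were tested on simulated data. Alternatives were no filter, doublets left in, 5% mitochondrial UMIs, cells thinned to 5000 UMIs, size factors from the median gene, means of counts per 10000, gates of 1 or 3 UMIs and, chosen after seeing the data, leaving out the 10 richest cells and the alternatives for *dand5* in 2 classes. A result that needs a withheld gene is not reported here.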

Additional observations from a re-analysis of the deposited data

Results flagged for a closer look

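*dand5* lay in opposite directions in different classes, a difference that was not tested. Its log2 ratio of *stag2b*-/- over wild type was 0.96 in the *noto* and *tbxta* cells, whereas it was -2.24 in NMP-like, -1.72 in mesoderm progenitor-like and -1.47 in notochord-like cells without *noto*. Without the 10 richest cells of each library the value in the *noto* and *tbxta* cells was -0.16 (-1.31 to 0.95). Of the other classes, several were on the lower side. The ratio was -3.95 in *msgn1* cells without *tbxta* (6 UMIs in *stag2b*-/- and 50 in wild type) and -4.30 in anterior presomitic mesoderm-like cells (3 and 41). It was -2.77 in neural-like (5 and 25), -2.81 in basal epidermis-like (7 and 49) and -4.92 in periderm-like cells (9 and 256). Cells with 2 or more UMIs numbered, in that order, 0, 0, 0, 0 and 1 in *stag2b*-/- and 4, 2, 4, 5 and 5 in wild type. Other classes were on the higher side, at 3.89 (1.20 to 9.28) in lateral mesoderm-like cells, from 16 UMIs in *stag2b*-/-, with 1 cell that had 2 or more, and 1 UMI in wild type, and at 1.68 (-1.36 to 7.20) in muscle-like cells, from 6 and 1. In cells gated on *foxj1a* and *tbxta* there were 52 UMIs, all in 1 cell, in *stag2b*-/- and 0 in wild type, and in neuron-like cells 6 and 0.

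Barcodes left out by the filters, 2997 in *stag2b*-/- and 1214 in wild type, held the genes too. In them *lft1* was at 2.94 CPM in *stag2b*-/- and 1.36 CPM in wild type, a log2 ratio of 1.11 (0.66 to 1.58). *tdgf1* had a ratio of 0.40 (0.08 to 0.72) and *gdf3* a ratio of 0.31 (0.05 to 0.57) in these barcodes, and *dand5* was lower, at 5.27 CPM against 24.8 CPM.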

How the results depend on the processing

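No paired analysis was possible because each genotype has 1 library. Over all kept cells, 33 of 42 alternative log2 ratios stayed within the interval of the main value and none changed sign among the genes past the 1.5-fold. Those outside were, for *dand5*, -1.62 with at most 5% mitochondrial UMIs, -1.77 in cells thinned to 5000 UMIs, -2.05 with size factors from the median gene, -2.03 as the mean of counts per 10000 and -2.03 without the 10 richest cells. For *lft1* they were 0.92 with those size factors and 1.46 without the 10 richest cells, and with the size factors *tdgf1* was at -0.11 and *gdf3* at 0.28.

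In leading classes 36 of 45 stayed within. For *dand5* the ratio was -0.85 with doublets left in, -1.06 and -2.61 at gates of 1 and 3 UMIs and -1.12 as the mean of counts per 10000. For *lft1* it was 0.87 in thinned cells, 1.69 at a gate of 1 UMI and 2.38 without the 10 richest cells, for *tdgf1* 0.70 at a gate of 1 UMI, and for *gdf3* 1.03 in thinned cells. The cells left out for the value of 2.38 held unequal parts of the *lft1* UMIs of the libraries. Leaving out 10 cells gave no value for *dand5*, *spaw* and *lft2* in these classes, where too few cells held them. The higher *dand5* level in the *noto* and *tbxta* cells turned to -0.16 without the 10 richest cells and was 0.66 to 1.32 under the other 5 alternatives tried. In NMP-like cells the *dand5* ratio was -1.79 with at most 5% mitochondrial UMIs and -1.89 both in thinned cells and at a gate of 3 UMIs. It was -2.54 with doublets left in and -3.43 without the 10 richest cells. At a gate of 1 UMI it was -2.37, within the interval of the main value.

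At a gate of 1 UMI, in the notochord-like class without *noto*, *lft1* was at 402 CPM in *stag2b*-/- and 125 CPM in wild type, *tdgf1* at 216 CPM and 133 CPM, and *dand5* at 157 CPM in wild type. At a gate of 3 UMIs, *lft1* was at 538 CPM and *dand5* at 37.0 CPM in *stag2b*-/-. In lateral mesoderm-like cells at a gate of 1 UMI, *gdf3* was at 68.8 CPM in *stag2b*-/- and 44.8 CPM in wild type.

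Thinning lowered every share of cells with a UMI. The thinned shares in *stag2b*-/- and wild type were 0.356% and 0.737% for *dand5*, 0.289% and 0.607% for *spaw*, 0.683% and 0.434% for *lft1*, 0.0806% and 0.0743% for *lft2*, 1.36% and 1.35% for *tdgf1*, and 2.62% and 1.76% for *gdf3*. Cells with at least 1 *dand5* UMI numbered 121 in *stag2b*-/- and 204 in wild type. Of the further pathway genes, 5 were past the fold on the higher side over all kept cells with size factors from the median gene. With no minimum of UMIs, 9 were lower and 12 higher in notochord-like cells without *noto*, and 11 and 14 in lateral mesoderm-like cells. The share over all genes was not computed without that minimum. The cause of these changes was not tested.

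Depth limits *lft2* and *spaw* most, with at most 5 and 3 UMIs in a cell. All intervals cover counting error only. Few cells carry most *dand5* UMIs, the number of embryos behind them is unknown, and 1 library per genotype cannot separate genotype from library.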
